A study of Mus musculus with 4 samples.

Results

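The nuclear-encoded respiratory chain was followed in the mouse calvarial pre-osteoblast line MC3T3-E1, which goes back to C57BL/6 mice. Its members were taken by gene symbol: the Nduf subunits of complex I without the assembly factors, Sdha to Sdhd of complex II, Cyc1 and the Uqcr genes of complex III, the Cox4i to Cox8 genes of complex IV and the Atp5 genes of complex V. This gave 86 genes of 19938, of which 83 had an array feature of their own. The other 3, Cox7c, Ndufb4 and Ndufb4b, lay only on features that carry a second symbol as well. For a gene with several features the brightest over the 4 arrays was kept, which concerned 17 members. The 83 genes lie on 19 chromosomes, with 3 on the X (Ndufa1, Ndufb11 and Cox7b). They were picked by symbol, and measured values served only to choose among the features of a gene. Earlier results of these data were known when the members were chosen.

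There were 4 groups with 1 Affymetrix array each: untreated cells at day 3, treated cells at day 3, untreated cells at day 7 and treated cells at day 7. All cells grew in proliferation medium, and the treated ones also received citalopram, a selective serotonin reuptake inhibitor, at 100 µM. The sample labels call them SSRI treated and the series title names the drug. The study asks what citalopram exposure does in cells of the bone-forming lineage, and no sample was given an osteogenic medium according to the labels. Each condition is a single array of a single clonal line, so a difference between 2 arrays has no replicate and carries no error of its own. The number of arrays limits the precision. In such bulk RNA, fewer cells with a transcript and less transcript per cell cannot be told apart.

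The respiratory chain passes electrons from NADH through complex I, and from succinate through complex II, to ubiquinone, then through complex III and cytochrome c to complex IV, which reduces oxygen. Complexes I, III and IV pump protons across the inner mitochondrial membrane, and complex V, the ATP synthase, lets them flow back to make ATP. A few subunits are encoded by mitochondrial DNA and all others by nuclear genes, whose promoters are known to use the factors NRF1, GABPA (an ETS factor) and YY1. Osteoblasts are known to draw on both glycolysis and respiration as they mature.

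These letters were looked for in RefSeq promoter windows (build GRCm38.p6), each of 300 bases from 250 before to 50 after an annotated start, on both strands. The window set held 72 promoters of 67 members, and the other 16 members had no entry in it. NRF1 was searched as GCATGCGC, ETS or GABPA as CCGGAAG and YY1 as AAGATGGC. The ETS and YY1 words can overlap by their shared letters AAG, and the joined form stood in 0 member promoters. NRF1 letters stood in 10 of the 72 member promoters (13.9%), against 2.71% of all 32851 promoters and 5.12% of the 12490 promoters of genes above the detection floor. ETS letters stood in 17 (23.6%, against 8.86% and 16.5%) and YY1 letters in 10 (13.9%, against 2.75% and 4.23%). At least 1 of the 3 words was present in 31 member promoters (43.1%), against 13.3% of all promoters and 23.6% of those of genes above the floor. All 10 members with YY1 letters belonged to complex I (7 genes) or complex V (3 genes), while NRF1 and ETS letters occurred in members of all 5 complexes. Most searched members were in those 2 complexes: 32 in I and 15 in V, against 3 in II, 5 in III and 12 in IV. The match of a word describes the sequence and does not show that a factor binds there.

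Promoters are shown for 6 members on which the values below turn: Atp5e, the gene with the clearest difference between days; Sdhd and Atp5l, the lowest and highest members under citalopram at day 7; Ndufs4, which was higher under citalopram at both days; and Ndufa6 and Ndufb3, whose citalopram differences had opposite signs at the 2 days. Each runs 5′ to 3′ on the strand of its gene, and capitals mark a match to a searched word or its reverse complement.
Atp5e, chr2:174464052-174464351, minus strand: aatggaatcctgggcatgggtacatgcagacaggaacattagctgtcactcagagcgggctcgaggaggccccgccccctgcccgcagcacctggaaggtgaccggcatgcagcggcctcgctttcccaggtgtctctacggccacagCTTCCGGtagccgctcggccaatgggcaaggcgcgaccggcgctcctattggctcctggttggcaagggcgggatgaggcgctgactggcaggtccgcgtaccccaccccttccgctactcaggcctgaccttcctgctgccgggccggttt
Sdhd, chr9:50603800-50604099, minus strand: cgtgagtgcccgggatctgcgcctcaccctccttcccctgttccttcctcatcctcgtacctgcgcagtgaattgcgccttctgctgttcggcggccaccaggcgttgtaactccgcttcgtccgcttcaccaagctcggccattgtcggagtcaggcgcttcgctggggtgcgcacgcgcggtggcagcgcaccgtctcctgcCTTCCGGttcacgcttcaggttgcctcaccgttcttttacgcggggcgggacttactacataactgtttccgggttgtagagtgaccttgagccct
Atp5l, chr9:44920693-44920992, minus strand: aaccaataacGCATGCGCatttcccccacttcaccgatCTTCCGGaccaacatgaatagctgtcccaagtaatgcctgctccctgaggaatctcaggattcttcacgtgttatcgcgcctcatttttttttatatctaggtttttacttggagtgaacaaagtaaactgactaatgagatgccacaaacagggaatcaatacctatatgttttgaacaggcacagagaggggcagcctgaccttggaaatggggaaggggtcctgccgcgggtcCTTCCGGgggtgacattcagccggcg
Ndufs4, chr13:114388045-114388344, minus strand: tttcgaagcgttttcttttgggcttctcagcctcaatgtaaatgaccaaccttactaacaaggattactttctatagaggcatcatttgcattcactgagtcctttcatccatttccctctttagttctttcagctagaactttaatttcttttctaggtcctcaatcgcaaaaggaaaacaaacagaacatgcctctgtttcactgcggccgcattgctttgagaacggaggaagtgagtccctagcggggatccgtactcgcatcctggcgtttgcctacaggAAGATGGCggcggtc
Ndufa6, chr15:82354242-82354541, minus strand: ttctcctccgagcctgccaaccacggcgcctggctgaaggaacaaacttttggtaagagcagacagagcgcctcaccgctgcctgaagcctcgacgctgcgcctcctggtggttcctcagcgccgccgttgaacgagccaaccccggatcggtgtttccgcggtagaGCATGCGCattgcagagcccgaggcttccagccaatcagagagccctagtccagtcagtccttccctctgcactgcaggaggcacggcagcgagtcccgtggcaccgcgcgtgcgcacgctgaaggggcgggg
Ndufb3, chr1:58586147-58586446, plus strand: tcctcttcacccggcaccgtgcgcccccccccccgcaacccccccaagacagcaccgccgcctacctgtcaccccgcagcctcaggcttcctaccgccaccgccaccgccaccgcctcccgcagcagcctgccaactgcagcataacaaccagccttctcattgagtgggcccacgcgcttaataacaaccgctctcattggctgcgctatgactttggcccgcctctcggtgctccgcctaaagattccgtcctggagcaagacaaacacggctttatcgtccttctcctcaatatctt
Atp5e had 1 ETS match, beginning 102 bases before the start, and Sdhd had 1 that began 46 bases before it. Atp5l had NRF1 letters beginning 240 bases before the start and ETS letters in 2 places. Ndufs4 had YY1 letters from base 36 after the start and Ndufa6 had NRF1 letters 83 bases before it. Ndufb3 held none of the 3 words in this window.

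The 4 arrays were alike as a whole, with Pearson's r between 0.986 and 0.995 over all features. A gene counted as detected when it reached the 40th percentile of all genes on an array, a floor of 5.95 to 6.01 on the log2 scale of the deposited values. Detected on at least 1 array were 79 of the 83 members (95.2%), against 12415 of 19938 genes (62.3%). Osteoblast-lineage markers bore out the label in part: Sparc stood at 13.8 to 14.1 and 9 of 10 measured lineage markers passed the floor, but Alpl lay at the floor and Ibsp below it. Of other cell types, 9 of 12 muscle markers passed the floor, as did 3 of 7 chondrocyte, 3 of 7 macrophage, 2 of 8 adipocyte, 1 of 6 endothelial and 1 of 6 germ cell markers. Myog of muscle, Adipoq of fat and Ptprc of leukocytes were below the floor on every array.

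The 4 undetected members were Ndufa4l2, Cox6b2, Cox8b and Cox8c. Their values ran from 5.05 to 5.62, and all 4 are genes known for restricted expression. Cox6b2 and Cox8c are testis forms of complex IV subunits, Cox8b is a heart and muscle form and Ndufa4l2 is induced by hypoxia. The common partners of these isoforms were well above the floor, with Cox6b1 between 12.20 and 12.31, Cox8a between 12.15 and 12.31 and Ndufa4 between 11.17 and 11.51. Of 7 tissue-restricted complex IV isoforms, 4 passed the floor. Cox7a1 at 6.29 to 6.35, Cox7b2 at 6.08 to 6.35 and Cox4i2 at 6.38 to 6.49 were close to it, and Cox6a2 stood at 6.92 to 7.34. Levels of different genes are not ranked here, since each probe set has its own response.

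Under citalopram the respiratory chain stayed close to the untreated cells at both days. At day 3 the member median was -0.02 (log2, citalopram minus control) and at day 7 it was -0.03, against 0.03 and 0.01 for all genes above the floor. Members scattered less than genes at large: their interquartile range was 0.17 at each day, against 0.21 and 0.26 for all genes. Lower with citalopram were 45 of 79 members at day 3 (57.0%, against 42.3% of all genes) and 51 of 79 at day 7 (64.6%, against 48.7%). No member differed by 1.5-fold at either day, where 0.804% of all genes did so at day 3 and 1.5% at day 7.

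**Figure D1:**
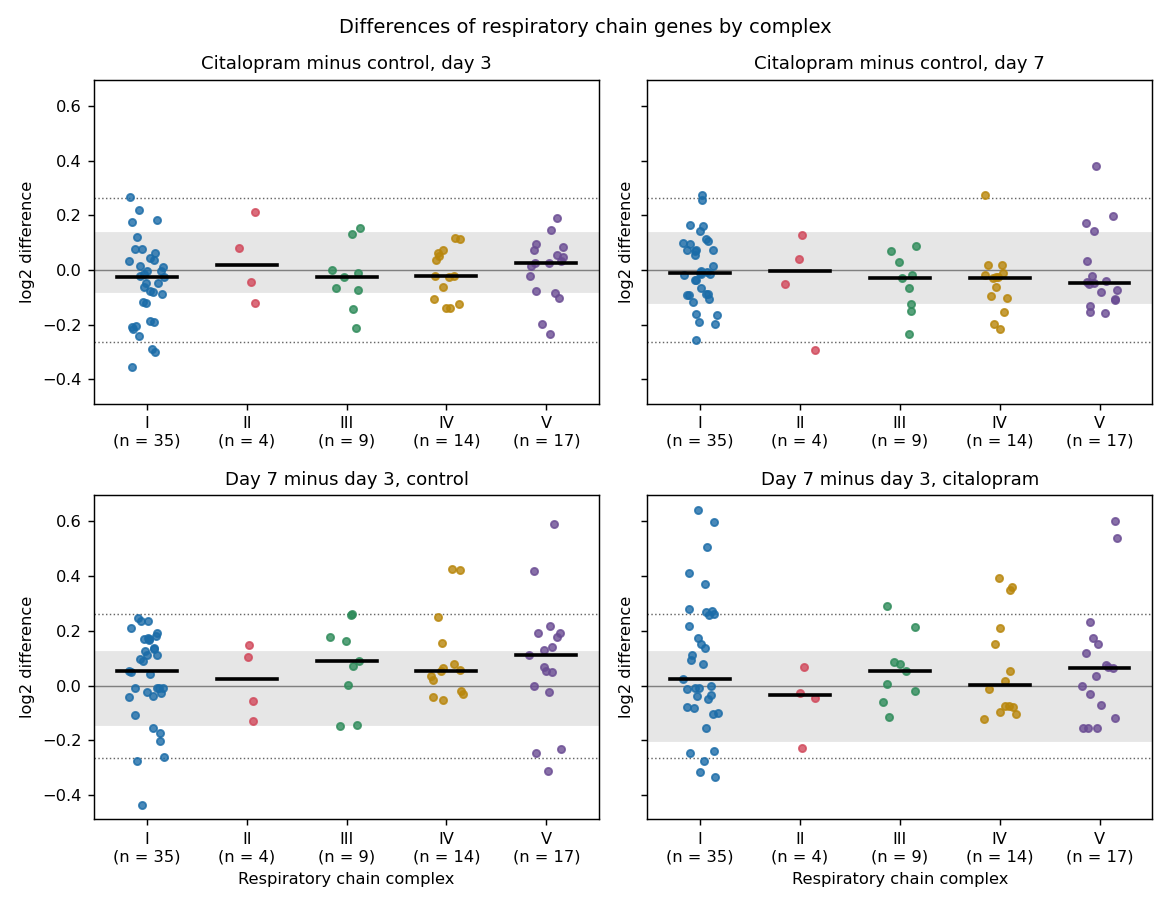
Each point is 1 respiratory chain gene above the floor, placed by complex, with its log2 difference on the vertical axis for 4 comparisons of 2 arrays each. Black bars are medians per complex, the grey band spans the middle 50% of all genes and dotted lines mark 1.2-fold. Most points lie inside the dotted lines, and the points beyond them are most numerous in the comparison of days with citalopram.

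Few members passed 1.2-fold (0.263 on the log2 scale). At day 3, 1 member was at least 1.2-fold higher, against 8.94% of all genes, and 3 were at least 1.2-fold lower, against 4.96%. At day 7, 3 were higher, against 9.86%, and 1 was lower, against 9.07%. The split depends on scaling: quantile normalization gave 0 higher and 4 lower at day 3 and 1 and 1 at day 7, cyclic loess gave 0 and 5, then 1 and 1, and centring each array on its median gave 0 and 3, then 3 and 2. In either direction the members past 1.2-fold were 5.06% at each day, against 13.9% and 18.9% of all genes. Among genes with a mean of at least 9.87, the lower quartile of the members' means, 12.0% and 17.2% of 4195 other genes passed 1.2-fold, compared with 0% and 3.39% of the 59 members that bright. At day 3 the median of these other genes was 0.06, with 66.2% higher under citalopram, against -0.01 and 44.1% for the 59 members. At day 7 it was -0.01, with 47.3% higher, against -0.03 and 30.5%. The interquartile ranges of the other genes were 0.19 and 0.24, against 0.15 and 0.14 for the 59 members. That comparison group was chosen after the values were seen.

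limma was fitted with terms for treatment and day over 12415 genes. It tests whether the mean citalopram difference of the 2 pairs of arrays departs from 0. Its error joins a gene's own disagreement between the pairs (1 degree of freedom) with a variance shared over all genes (7.15 degrees of freedom). The shared part therefore sets most of each standard error. For citalopram limma called 0 members and 0% of all genes at a Benjamini-Hochberg adjusted p under 0.05. No member reached an unadjusted p of 0.05, which 1119 of all genes did (9.01%), and the smallest unadjusted p among members was 0.0908 for Sdhd. Other scalings called 139 genes (quantile) or 40 genes (loess) for citalopram, none of them a member. The standard errors of the members' citalopram estimates ran from 0.103 to 0.140, with a median of 0.105.

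Complex I, the NADH dehydrogenase, with 35 of the 79 detected members, held those that stood farthest from control at day 3. The members past 1.2-fold at that day, Ndufa1, Ndufb10, Ndufb3 and Ndufs5, had 4-array means of 8.99, 8.49, 8.02 and 9.08. These are below 9.87, the lower quartile of the members' means. Over the 35 genes the median was -0.03 at day 3, with 22 lower and 13 higher. At day 7 it was -0.01, where the mean was slightly above 0. The lowest were accessory subunits of the membrane arm, which surround the catalytic core. Ndufa1, needed for assembly of the membrane arm, read 8.97 in control against 8.62 with citalopram at day 3, and 9.14 against 9.22 at day 7. Pairs of values below keep that order, control before citalopram. Ndufb10 read 8.49 and 8.19 at day 3 and 8.58 and 8.69 at day 7. Ndufb3 read 7.98 and 7.69 at day 3 and 8.08 and 8.34 at day 7. In all 3 genes the citalopram array of day 3 was the lowest of the 4 and that of day 7 the highest. Their citalopram differences were -0.35, -0.30 and -0.29 at day 3, and 0.07, 0.11 and 0.25 at day 7. Ndufa6 showed the same order, with 9.55 and 9.33 at day 3 and 9.60 and 9.70 at day 7.

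Ndufs5, an accessory subunit on the intermembrane-space side, ran the other way. It read 9.01 and 9.28 at day 3, a difference of 0.27 and the highest of the members, then 9.07 and 8.96 at day 7. The citalopram array of day 3 stood above the other 3. Ndufb2 was also higher at day 3, by 0.22, and level at day 7. Ndufa5, an accessory subunit of the matrix arm, was the highest of complex I at day 7, with 9.32 and 9.38 at day 3 and 9.28 and 9.55 at day 7. Ndufs4, a subunit near the NADH-binding module whose loss is a known cause of Leigh-like disease in mice, read 12.38 and 12.56 at day 3 and 12.12 and 12.28 at day 7. It was higher with citalopram in 2 of 2 pairs, by 0.18 and 0.17, but limma gave an unadjusted p of 0.129 and an adjusted p of 0.707.

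The 6 measured core subunits of complex I, among them those that carry the flavin and iron-sulphur clusters, did not move as a unit. Their median was -0.08 at day 3 and -0.09 at day 7, with 4 of 6 lower at each day. Ndufv1, which holds the flavin, had differences of -0.08 and -0.26, from 11.17 and 11.09 at day 3 and 11.34 and 11.08 at day 7. Ndufs8, an iron-sulphur subunit, read 11.96 and 12.14 at day 3 and 12.09 and 11.90 at day 7, so citalopram was above control at the earlier day and below it at the later one. Ndufs1, the largest iron-sulphur subunit, showed the reverse, with 9.80 and 9.61, then 9.63 and 9.72. Ndufs7, Ndufs3 and Ndufv2 had differences between -0.16 and 0.08.

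**Figure D2:**
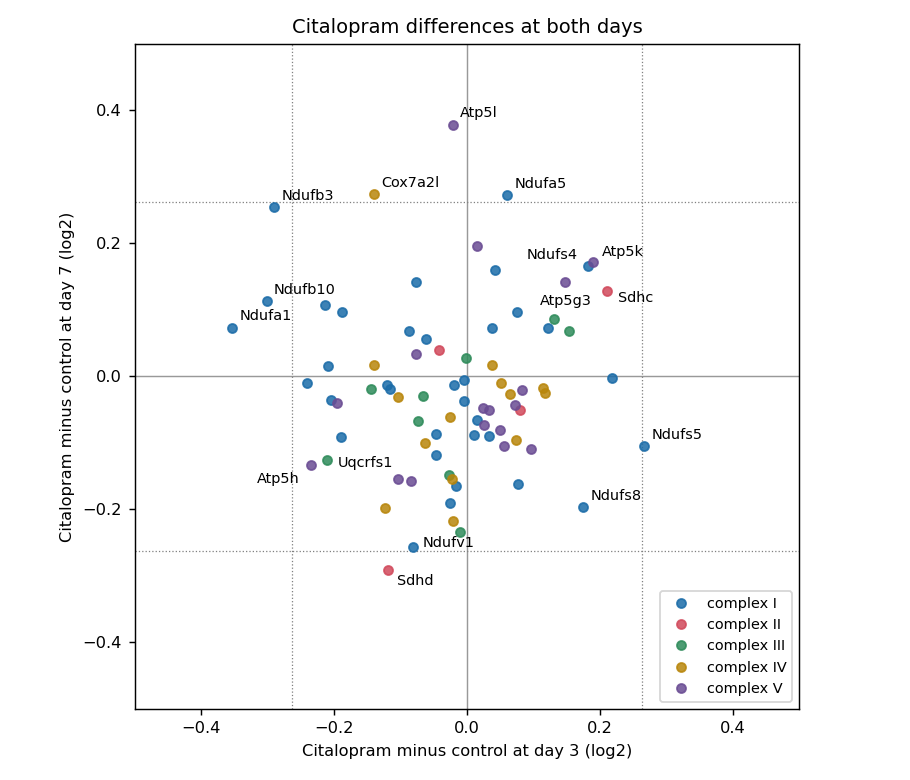
Each point is 1 of 79 respiratory chain genes, with the citalopram minus control difference at day 3 on the horizontal axis and at day 7 on the vertical axis, both in log2 units and coloured by complex. Dotted lines mark 1.2-fold. No gene lies beyond 1.2-fold at both days, and Ndufa1, Ndufb10 and Ndufb3 sit at the far left and above 0 on the vertical axis.

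Complex II, succinate dehydrogenase, also serves in the TCA cycle and is wholly nuclear-encoded. Its 2 catalytic subunits were close to level: Sdha, the flavoprotein, read 11.50 and 11.45 at day 3 and 11.37 and 11.41 at day 7, and Sdhb, the iron-sulphur subunit, 10.21 and 10.29, then 10.31 and 10.26. The 2 membrane anchors, which bind ubiquinone together, lay on opposite sides of control. Sdhc read 10.36 and 10.57 at day 3, control first, and 10.51 and 10.64 at day 7, higher with citalopram in 2 of 2 pairs. Sdhd read 10.39 and 10.27 at day 3 and 10.33 and 10.04 at day 7, where its difference of -0.29 was the lowest of all members. Over both days limma estimated 0.17 (SE 0.10, adjusted p = 0.717) for Sdhc and -0.21 (SE 0.11, adjusted p = 0.649) for Sdhd, so neither difference passed the test. The difference between the anchors was not tested.

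Complex III, the cytochrome bc1 complex, had 7 of 9 genes lower with citalopram at day 3 and 6 of 9 at day 7, and 6 of 9 were lower at both. Its medians were -0.03 at each day. Uqcrc1 and Uqcrc2, the matrix-facing core proteins, were near level at day 3 (-0.01 and -0.03) and lower at day 7 (-0.23 and -0.15). Uqcrc1 read 11.35, 11.34, 11.51 and 11.28 for control and citalopram at day 3 and control and citalopram at day 7, so the untreated array of day 7 stood above the other 3. Of the redox subunits, Uqcrfs1, the Rieske iron-sulphur protein, had differences of -0.21 and -0.13, and Cyc1, which holds cytochrome c1, -0.07 and -0.03. Uqcrh, the hinge protein, was higher in 2 of 2 pairs, by 0.15 and 0.07, and Uqcr11, a small subunit, by 0.13 and 0.09. None of these passed limma's test.

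Complex IV, cytochrome c oxidase, had a median of -0.02 at day 3 and -0.03 at day 7, with 8 and 11 of 14 detected genes lower. Cox4i1, the common form of its largest nuclear subunit, was lower in 2 of 2 pairs, at -0.12 and -0.20. Cox7a2l, which is known for joining complexes III and IV into supercomplexes, read 9.68 and 9.54 at day 3 and 9.66 and 9.94 at day 7, and its citalopram array of day 7 was the highest of the 4. The second feature of Cox7a2l gave -0.34 at day 3 and 0.15 at day 7, the same signs as the kept one (-0.14 and 0.27). Cox6c, Cox7b, Cox6b1 and Cox8a were within 0.12 of control at both days. The tissue-restricted forms stayed at low levels: Cox7b2 had the lowest complex IV difference at day 7, -0.22, at values between 6.08 and 6.35, little above the floor.

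Complex V gave the highest member at day 7. Atp5l, a membrane subunit at the dimer interface of the ATP synthase, read 10.96 and 10.94 at day 3, control first, and 10.71 and 11.09 at day 7, a 1.30-fold difference (0.38). The untreated array of day 7 was the lowest and the treated one the highest, and all 6 features of Atp5l placed the day 7 difference between 0.33 and 0.38. Those features may share probes or transcripts and are not replicates. Atp5k, another dimer-interface subunit, was higher in 2 of 2 pairs, with 7.09 and 7.28 at day 3 and 7.28 and 7.45 at day 7. Atp5h, of the peripheral stalk, was lower in 2 of 2 pairs, with 12.68 and 12.45, then 12.81 and 12.68.

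The 5 genes of the catalytic head of complex V were all lower with citalopram at day 7, under each scaling tried, at -0.05 to -0.16 with a median of -0.11. Atp5a1, the alpha subunit, differed by -0.16, Atp5b, the beta subunit with the catalytic sites, at -0.05 and Atp5e, the epsilon subunit, at -0.15. At day 3 the same 5 were mixed, 3 higher and 2 lower, and the signs of Atp5b and Atp5c1 then depended on the scaling. The 3 genes of the c subunit, which build the proton-driven rotor ring and encode the same mature protein, were all higher at day 3, by 0.07 (Atp5g1), 0.08 (Atp5g2) and 0.15 (Atp5g3). At day 7 they stood at -0.04, -0.02 and 0.14. The complex V median was 0.03 at day 3 and -0.05 at day 7, but the day 3 value was -0.00385 under quantile normalization and -0.00694 under loess, and the complex II median of 0.02 at day 3 was -0.01 under both.

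Over both days, 30 of 79 members were lower with citalopram at each (38.0%, against 22.2% of all genes) and 13 were higher at each (16.5%, against 30.7%). Of the others, 21 were above control at day 3 and below it at day 7 (26.6%, against 27.0% of all genes). The reverse held for 15 (19.0%, against 20.0%), so both shares were near those of all genes. In complex V, 8 of 17 genes went from higher to lower (47.1%, against 27.0% of all genes). Many of these differences are small, and 8 of the 79 signs at each day depended on the scaling.

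From day 3 to day 7 more members were higher than lower. In untreated cells the member median was 0.07 (log2, day 7 minus day 3), against -0.01 for all genes. Higher were 51 of 79 members (64.6%, against 47.2% of all genes). With citalopram the member median was 0.03, against -0.04, and 42 of 79 were higher (53.2%, against 44.2%). Of the 79 signs, 5 in untreated cells and 13 in treated cells depended on the scaling. Among the 59 brighter members the untreated median was again 0.07, with 35 higher, but the treated median was -0.0016, with 28 higher and 31 lower. The 4195 other genes that bright had medians of -0.01 and -0.07, and 48.3% and 38.5% of them were higher. The untreated comparison had 4 members at least 1.2-fold higher, against 9.18% of all genes, and 3 at least 1.2-fold lower, against 11.6%. The treated comparison had 14 higher, which is 17.7% of members against 12% of all genes, and 3 lower, which is 3.80% against 18.2%. By complex, the untreated medians were 0.05, 0.02, 0.09, 0.06 and 0.11 for I to V. The treated ones were 0.03, -0.04, 0.05, 0.00 and 0.06, of which the signs for II, III and IV turned under quantile normalization (0.00372, -0.0140 and -0.0262).

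limma called 2 members for day, both of complex V, against 2.8% of all genes (348 of 12415, 163 up and 185 down). Atp5e, whose product is the smallest subunit of the catalytic head, read 9.80 and 9.70 at day 3, then 10.40 and 10.24 at day 7. Both arrays of day 7 lay above both of day 3, and the difference was 0.59 without citalopram (1.51-fold) and 0.54 with it. limma estimated 0.57 (SE 0.10, adjusted p = 0.0335), and Atp5e kept its call under all 3 other scalings, with adjusted p from 0.00115 to 0.0221. Atp5mpl, a small membrane subunit, read 10.19 and 10.21 at day 3 and 10.61 and 10.81 at day 7, and limma estimated 0.51 (SE 0.11, adjusted p = 0.0497). Its call was lost when all features of each gene were averaged (adjusted p = 0.0572). Both calls were lost with no floor (smallest adjusted p = 0.0506) and in a fit with day as the only term (0.0860). In that fit, leaving out the untreated array of day 3, or the treated array of day 3, gave 0 calls, leaving out the untreated array of day 7 gave 2 and leaving out the treated array of day 7 gave 1, Atp5e.

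**Figure D3:**
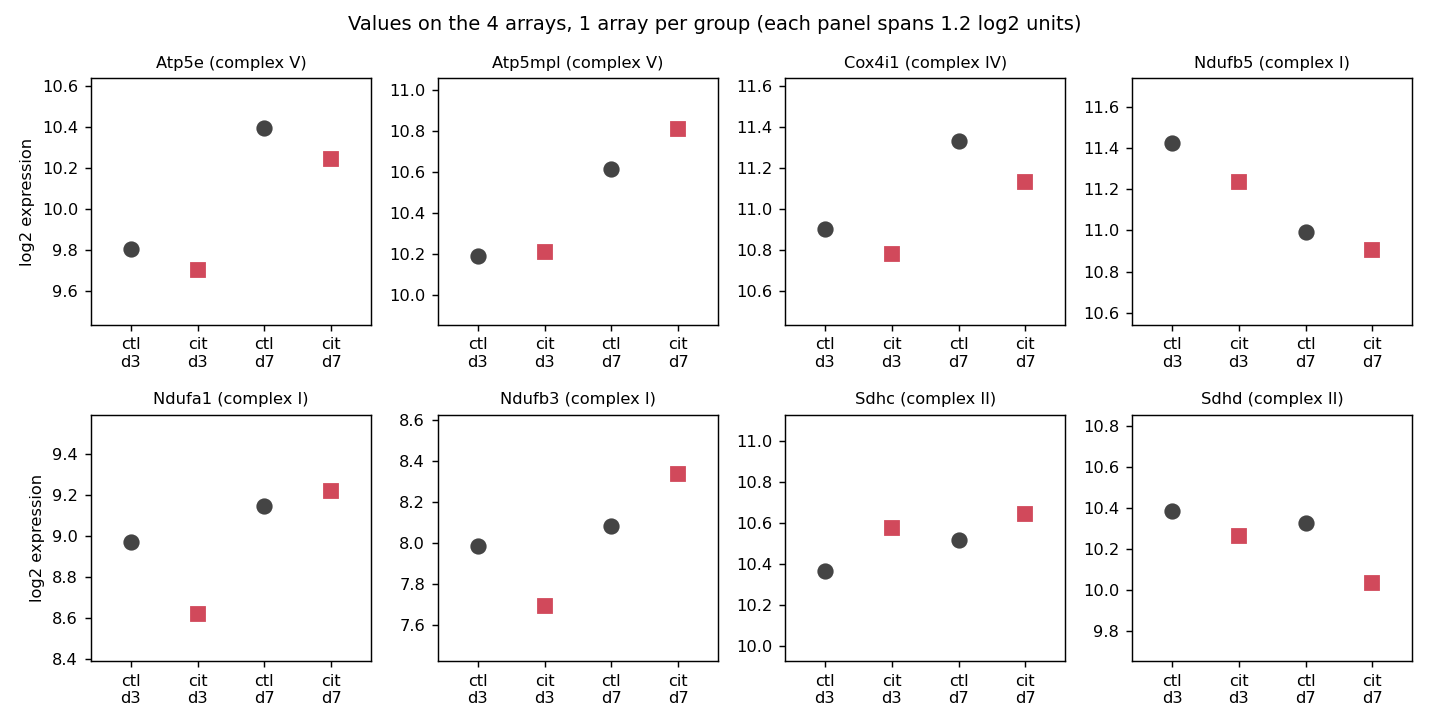
The 4 log2 values of 8 members, with circles for control and squares for citalopram, at day 3 (left) and day 7 (right); every panel spans 1.2 log2 units, and there is 1 array per group. Atp5e, Atp5mpl and Cox4i1 stand higher on both arrays of day 7 and Ndufb5 lower, while Sdhc and Sdhd differ from control in opposite directions.

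Further members had both arrays of day 7 on the same side without passing the test. Cox4i1 read 10.90 and 10.78 at day 3 and 11.33 and 11.13 at day 7, with a limma estimate of 0.39 (SE 0.10, adjusted p = 0.0871). Quantile normalization and loess brought it to adjusted p of 0.0184 and 0.0309. Cox6a2, a heart and muscle isoform, read 6.92 and 6.97, then 7.34 and 7.33 (adjusted p = 0.0845), and quantile normalization reduced its treated difference from 0.36 to 0.16. The muscle markers measured beside it had a median of -0.02 between the days in untreated cells and -0.14 in treated cells. Ndufb5, an accessory subunit of complex I, was the lowest member between days: 11.43 and 11.24 at day 3 and 10.99 and 10.90 at day 7. Its limma estimate was -0.38 (SE 0.10, adjusted p = 0.0915), with an adjusted p of 0.0373 under quantile normalization. In untreated cells Atp5md, a small ATP synthase subunit, and Ndufa9, of the complex I matrix arm, were also at least 1.2-fold lower at day 7, at -0.31 and -0.27, and in treated cells they stood at -0.16 and -0.16. The 3 features of Atp5md ran from -0.31 to -0.13 in untreated cells, so 1.2-fold was not reached by every feature. Ndufs4 was lower at day 7 in 2 of 2 pairs, at -0.26 and -0.28, and Uqcrq, a small subunit of complex III, was higher in 2 of 2, by 0.26 and 0.29.

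The complex I accessory genes that were low on the treated array of day 3 differed more between days with citalopram than without it. Between the days Ndufb3 differed by 0.64 with citalopram and 0.10 without, Ndufa1 by 0.60 and 0.17, and Ndufb10 by 0.51 and 0.09. Ndufb3, Ndufa1 and Atp5mpl were the 3 members past 1.5-fold in treated cells, against 4.81% of all genes, and Atp5e was the only 1 in untreated cells, against 2.29%. These differences use the same treated array of day 3 that gave their citalopram differences above, and are not a second piece of evidence. Ndufb6 was likewise lowest on the treated array of day 3, with 12.99 and 12.75 at day 3 and 13.18 and 13.17 at day 7.

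**Figure D4:**
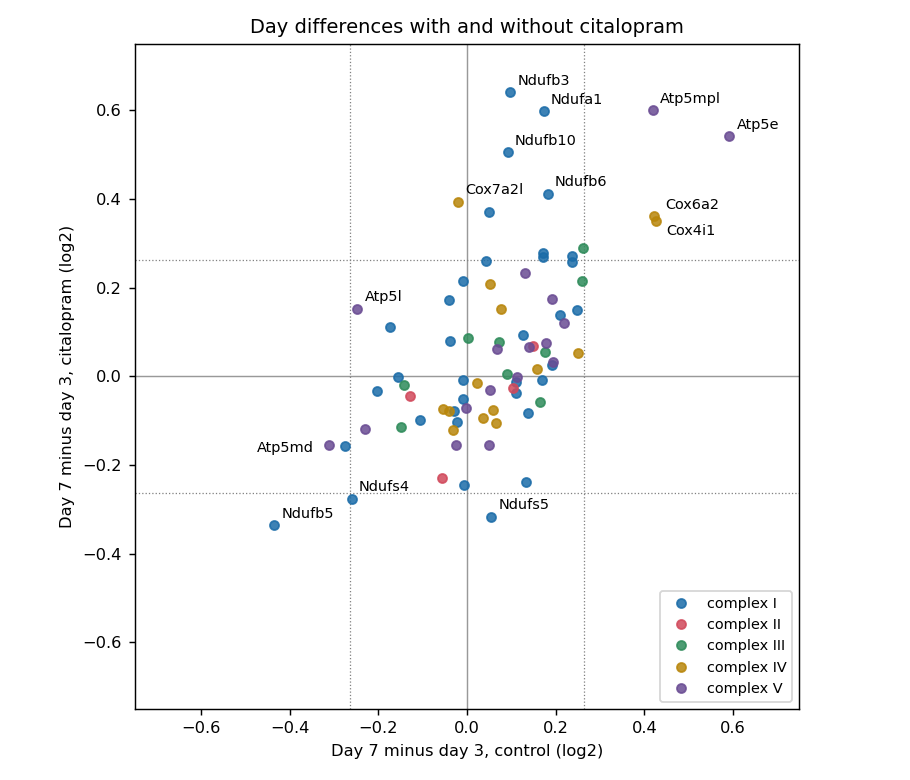
Each point is 1 of 79 respiratory chain genes, with the day 7 minus day 3 difference in control cells on the horizontal axis and in citalopram cells on the vertical axis, both in log2 units. Atp5e, Atp5mpl, Cox4i1 and Cox6a2 lie beyond 1.2-fold (dotted lines) on both axes, as does Ndufb5 on the low side, and Ndufb3, Ndufa1 and Ndufb10 beyond it only vertically.

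Between days, 36 members were higher in both treatments (45.6%, against 27.9% of all genes) and 22 were lower in both (27.8%, against 36.6%). The untreated array of day 7 was the highest of the 4 for 30 of 79 members and the lowest for 10, against 17.97% and 24.27% of all genes. The treated array of day 3 was the lowest for 25 members, against 17.3% of all genes. The deposited array medians over all features were 6.50, 6.50, 6.60 and 6.66 for control and citalopram at day 3 and then at day 7. The median difference of all genes above the floor stayed within 0.0361 of 0 in the 4 comparisons.

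Members with and without a promoter word are set side by side here. The 31 detected members with a word had medians of -0.01, -0.02, 0.10 and -0.01 in the citalopram differences at day 3 and day 7 and the day differences of control and treated cells. The 34 detected members with a promoter but no word had -0.03, -0.02, 0.05 and 0.07. These medians are a description, with no test.

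Genes that act with the respiratory chain were described from separate lists. Of the subunits encoded by mitochondrial DNA, 2 had named features, COX2 (14.47, 14.38, 14.40 and 14.62) and ND3 (14.10, 13.97, 14.27 and 14.26), in the array order used above. Neither was called by limma. At day 3, 2 assembly factors stood farther below control than any member: Cox17, a copper carrier for complex IV, had -0.43 at day 3 and 0.25 at day 7, and Uqcc3, a complex III factor, -0.41 and 0.38. Both share the signs of Ndufb3. Uqcc2 was the highest factor at day 3 (0.23) and Coa7 the lowest at day 7 (-0.24). Of 32 factors for complexes II to V, 3 were at least 1.2-fold lower at day 3 (4.96% of all genes) and 1 higher at day 7 (9.86% of all genes). Of 14 for complex I, 3 were lower (9.07% of all genes) and 1 higher at day 7. Their extremes were Tmem186 (-0.24) and Ndufaf7 (0.07) at day 3, and Timmdc1 (-0.35) and Ndufaf6 (0.38) at day 7.

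In the list of transcriptional control and mitochondrial DNA upkeep, 15 of 19 genes were higher with citalopram at day 7, where 51.3% of all genes were, with a median of 0.12. At day 3, 13 of 20 were lower, against 42.3% of all genes, with a median of -0.08. At least 1.2-fold higher at day 7 were 5 of them, against 9.86% of all genes: Twnk, the mitochondrial helicase (0.53), Polg2, of the mitochondrial DNA polymerase (0.45), the coactivators Pprc1 (0.42) and Ppargc1b (0.31), and Yy1 (0.31). Polg, the catalytic subunit of that polymerase, was the lowest at day 7 (-0.26), and Pprc1 the highest at day 3 (0.08). Tfam, which packages mitochondrial DNA, had -0.29 at day 3 and 0.16 at day 7, and the genes of the factors searched for above, Nrf1 and Gabpa, had -0.22 and 0.09, and -0.19 and 0.19. None was called by limma. The members' own median at day 7, -0.03, was slightly below 0. A link between the genes of this list and the members was not tested.

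The TCA cycle list, whose 17 genes include those of pyruvate dehydrogenase, had medians of -0.00 and -0.06 at the 2 days. Idh2, the mitochondrial NADP-dependent isocitrate dehydrogenase, was lowest at day 7 (-0.38) and Pdhx, of pyruvate dehydrogenase, highest (0.29). At day 3 the extremes were Dld (-0.26) and Pdha1 (0.26). Among the carriers and ubiquinone genes the median was -0.04 and -0.06, with Etfa (-0.35) and Gpd2 (0.19) outermost at day 3 and Coq6 (-0.29) and Coq10b (0.24) at day 7. Coq5, a methyltransferase of ubiquinone synthesis, read 10.24, 10.26, 9.50 and 9.50 and fell between days (limma -0.75, SE 0.10, adjusted p = 0.0114), while its citalopram differences were 0.02 and 0.01. Of the nucleotide carriers, Slc25a5, which exchanges ADP for ATP, had -0.28 at day 7, and Vdac3, an outer-membrane channel, -0.19 at day 3. Atpif1, the inhibitor of the ATP synthase, was the highest of that list with citalopram (0.14 and 0.10) and was higher at day 7 than at day 3 in 2 of 2 pairs, by 0.37 and 0.33. Of the antioxidant list, Hmox1, haem oxygenase 1, was farthest above control at both days, by 1.03 and 0.63 (limma 0.83, SE 0.12, adjusted p = 0.252). Prdx3 was lowest at day 3 (-0.26) and Gpx4 at day 7 (-0.33). Nqo1 had citalopram differences of 0.44 and 0.34 and rose between days (limma 0.54, adjusted p = 0.0390). In the mitosis list each of the 19 genes lay below control at both days, with medians of -0.25 and -0.64, and 19 of 19 were at least 1.2-fold lower at day 7, against 9.07% of all genes. Their differences ran from Birc5 (-0.62) to Bub1b (-0.10) at day 3 and from Cenpa (-1.06) to Tpx2 (-0.31) at day 7, and limma called 0 of them for citalopram. The mitosis list was chosen with earlier results of these data known, so its counts are a description and not separate support. The part of the mitosis differences in the members' values was not tested.

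**Figure D5:**
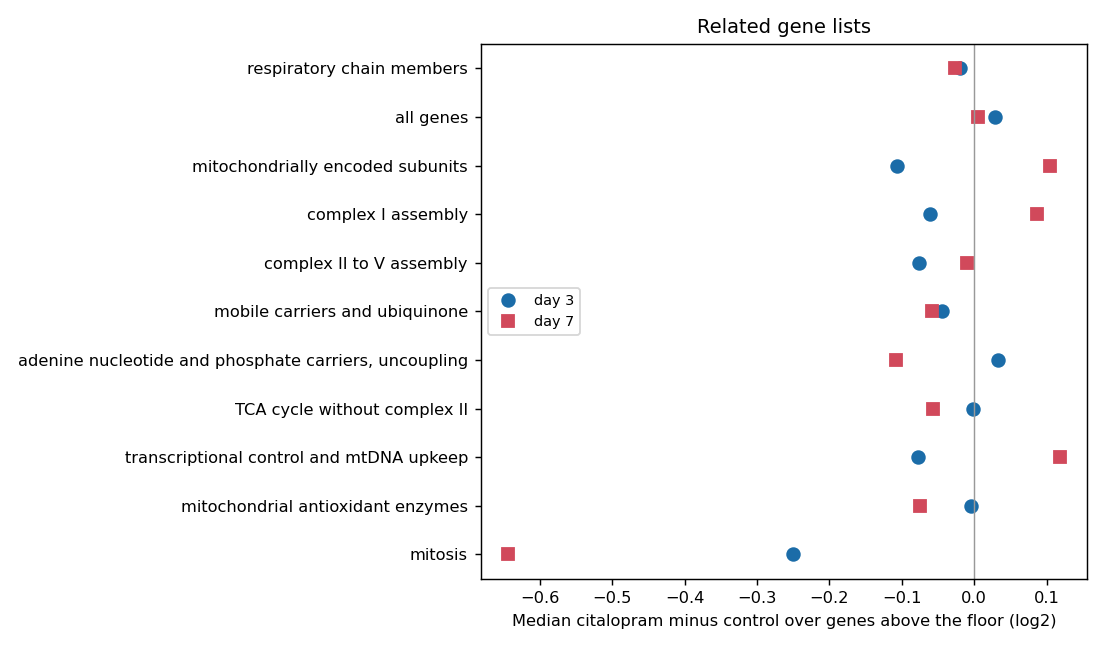
Medians of the citalopram minus control difference at day 3 (circles) and day 7 (squares), in log2 units, over the genes above the floor, for the respiratory chain members, all genes and 9 related lists. The respiratory chain medians, -0.02 and -0.03, lie beside 0, and the mitosis list lies lowest at both days, at -0.25 and -0.64. The lists were chosen with earlier results of these data known.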

How the data were processed

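The files give 1 value per feature and array on a log2 scale, as deposited by the authors; no source used here states the base, which was inferred from the range of 3.90 to 15.5. Per the submitters' processing notes Partek was used, with no version; how background, normalization and probe summarization were handled was not given in the sources used here. Such steps can compress differences or leave shifts between arrays. Per the labels' protocols, 3 wells per arm were treated and 250 ng of RNA labelled; pooling of wells is likewise not stated there.

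Of 35556 features, 21789 carried 1 symbol in the platform annotation, 1621 several and 12146 none. All 83 members matched RefSeq (GRCm38.p6) by Entrez number with 0 symbols changed. A gene entered a comparison when its brighter array reached the 40th percentile floor. Differences of log2 values were counted at 1.2-fold and 1.5-fold. limma 3.58.1 (R 4.3.3, lmFit, eBayes, two-sided, Benjamini-Hochberg over all 12415 genes) used additive treatment and day terms and was tested on simulated data. It had 1 residual degree of freedom per gene, and eBayes added 7.15 from the variance shared over genes. Its p-values rest on that shared variance and on the spread between these arrays, which may be technical. Tables came from pandas 2.3.3 and numpy 2.4.6 (Python 3.11.15), and figures from matplotlib 3.10.9.

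Members, lists and tests were chosen with earlier results of these data known. Named genes are the redox, catalytic and isoform subunits, the extremes of each complex and of all members in each difference, members past 1.5-fold or called by limma, and the extremes of each related list. Ndufa6, Uqcrc2 and other genes named for a pattern outside that rule were chosen after their values were seen. Alternatives were other scalings, the mean of a gene's features, no floor, shared features as members, Ndufa4 in complex IV, means for medians, an intensity trend and fits of 1 term, with each array left out.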

Additional observations from a re-analysis of the deposited data

Results flagged for a closer look

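For 9 of 79 respiratory chain genes (11.4%) the citalopram difference had opposite signs at the 2 days and moved by at least 1.2-fold between them, against 2620 of 12415 genes (21.1%). The difference between the days was not tested, since each rests on 4 single arrays. It was 0.54 on the log2 scale for Ndufb3, 0.43 for Ndufa1, 0.41 for Ndufb10, 0.32 for Ndufa6 and 0.29 for Ndufs1, all of complex I. It was 0.41 for Cox7a2l of complex IV and 0.40 for Atp5l of complex V. In these 7 genes citalopram was below control at day 3 and above it at day 7. The opposite course was seen for Ndufs5 (-0.37) and Ndufs8 (-0.37) of complex I. Of the 9 genes, only Atp5l and Ndufs8 had a mean of at least 9.87, the lower quartile of the members' means. Over all genes the same criterion found 1089 that were higher at the later day and 1531 that were lower.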

How the results depend on the processing

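The member medians kept their signs under every alternative run, and limma called 0 members for citalopram under each of them. Of the results on complexes and members, 243 values under an alternative stayed within a set margin. It was the residual spread of a pair difference (0.112) for medians and 1.5 times for counts. Of the counts, 12 were smaller and 3 larger than that. Most medians were themselves smaller than 0.112, so this margin cannot show that a median held. Among the 243, 9 complex medians near 0 changed sign, 7 of them under quantile normalization or loess as given above. Members at least 1.2-fold higher with citalopram at day 3 numbered 0 under quantile normalization, loess and centring, and at day 7 they numbered 1 under quantile normalization and loess. Members at least 1.2-fold lower numbered 5 at day 3 under loess and 2 at day 7 under centring. Members past 1.5-fold between days in treated cells numbered 1 under quantile normalization. limma's day calls among members numbered 5 under quantile normalization, 1 with the mean of features, and 0 with no floor or with day as the only term. With 1 array left out of that last fit they ranged from 0 to 2. There the day left with 1 array is assumed to vary like the other. Over all genes limma's day calls numbered 1544 under quantile normalization, 1018 under loess, 190 with no floor and 68 with day alone. They ranged from 29 to 967 with 1 array left out. Its citalopram calls numbered 139 and 40 under quantile normalization and loess. The cause of these shifts was not tested. With its term for day, limma's fit compared treated and untreated arrays in pairs within each day. Each group has 1 array and the labels number no replicates, so no pairing beyond that was possible. Signal near the floor limits Cox7b2, Cox7a1 and Cox4i2.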

Other observations

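The 3 genes left out of the counts for want of a feature of their own are given here. The 2 features of Ndufb4 and Ndufb4b gave citalopram differences of 0.11 and 0.15 at day 3 and of 0.04 at day 7. Those of day 3 lay above the members' upper quartile of 0.06. Between the days in untreated cells these features differed by 0.18 and 0.22, also above the members' upper quartile (0.17). The 3 features of Cox7c, which they share with Gm12338, lay between -0.08 and 0.03 in the 2 citalopram differences.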
